A study of Mus musculus with 13 samples.

Results

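RNA bound by J2, a monoclonal antibody against double-stranded RNA, was compared with total RNA in Yumm1.7 cells, a mouse cutaneous melanoma line labelled wild type. The 6 libraries used, of 13 in the series, were 3 J2 precipitates and 3 total RNA libraries, joined into 3 pairs by their labelled treatment: DMSO (vehicle), ADAR1i-124 (an inhibitor of the RNA editing enzyme ADAR1, 10 µM for 12 h) and 5-AZA-CdR (a DNA methylation inhibitor, 1 µM for 72 h). Each fraction and treatment had 1 library, so the 3 treatments stood in as replicates of the fraction, and nothing in the labels says whether the J2 and total RNA of a pair came from 1 culture. All 3 precipitates had been digested with RNase I, which cuts single-stranded RNA, before the antibody was added. A precipitate with IgG, whose treatment the labels do not state, gave the RNA recovered without J2. Its level of Xist, an RNA seen in these libraries after 5-AZA-CdR, was 1.04 CPM (counts per 1000000), against 123 to 333 CPM in the libraries of 5-AZA-CdR used here, so for those libraries antibody and treatment cannot be told apart in any comparison with IgG. Of 54532 genes in the count table, 14142 had on average 1 CPM or more in the 6 libraries and were kept. The measure was the log2 ratio of J2 to total RNA CPM after adding 0.5 to each, given as the mean ± SD over the 3 pairs, and the IgG ratio was taken against the geometric mean of the 3 total RNA libraries. Both are ratios of shares of a library, so they give enrichment and not amount.

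As background, double-stranded RNA forms where a transcript folds on an inverted repeat, where transcripts from both strands of a locus meet, or in stable folds of noncoding RNAs. J2 recognises long duplexes with little regard to sequence. ADAR1 edits adenosines in such duplexes and so keeps them from the cytoplasmic sensors of viral RNA, and DNA methylation keeps repeats that can form them silent. RNase digestion leaves any RNA that is folded, short or shielded, which is why a J2 ratio was read beside the IgG ratio.

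The 6 libraries held 12183560 to 34571822 counts, so 1 CPM stood for 12.2 to 34.6 reads, and the IgG library held 15324595. The libraries of a pair did not carry the same RNA levels for genes unrelated to folding. The summed CPM of Ddx3y, Kdm5d and Uty, genes of the Y chromosome, was 6.46, 106 and 87.0 in the DMSO, ADAR1i-124 and 5-AZA-CdR total RNA, and 56.6, 2.71 and 3.01 in the J2 libraries of the same labels. Col4a1 (a basement membrane collagen) ran the same way, at 8.05, 186 and 142 CPM in total RNA and 106, 10.5 and 4.51 CPM in J2. Across the 14142 genes, Pearson's r between the ratios of the DMSO pair and those of the other pairs was 0.05 (ADAR1i-124) and -0.02 (5-AZA-CdR), whereas the ADAR1i-124 and 5-AZA-CdR pairs gave 0.56 with each other. Genes are not independent replicates, so these are descriptions. Results are therefore given by pair, and the main counts also without the DMSO pair. Other measures had the same extreme under the labels of both fractions. Xist, at 0.294, 0 and 123 CPM in total RNA and 0.492, 0.278 and 259 CPM in J2, and the summed satellite genes were highest with 5-AZA-CdR in both, and Isg15, given further on, was lowest with ADAR1i-124 in both. What sets the Y-linked genes and Col4a1 apart from these was not tested. Mitf, the melanocyte transcription factor, had 17.6 to 33.1 CPM in the 6 libraries, whereas Sox10 and Dct were at most 0.0695 CPM. The leukocyte, endothelial and epithelial genes Ptprc, Pecam1 and Epcam were at most 1.59 CPM. Of the 10 melanocyte lineage genes listed, 2 were kept, Mitf among them. Those 2 summed to 224, 273 and 346 CPM in total RNA and 428, 132 and 401 CPM in J2. Of the 6 leukocyte and 4 endothelial markers listed, 1 each was kept: Cd68, a lysosomal protein of macrophages and other cells, and Cdh5, a cadherin of endothelium. Cd68 had 8.29, 19.5 and 75.4 CPM in total RNA and 59.6, 6.46 and 17.8 CPM in J2, and Cdh5 had 3.70, 17.8 and 81.1 CPM in total RNA and 8.21, 3.13 and 60.2 CPM in J2. Both were higher in J2 in the DMSO pair and lower in the other pairs, as the Y-linked genes and Col4a1 were; their part in the results was not tested. The other 5 leukocyte markers summed to at most 1.65 CPM, the other 3 endothelial markers to at most 2.66 CPM and the 4 epithelial markers to at most 0.231 CPM.

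Among the RNAs with the highest J2 ratios were the ribosomal RNA-like locus Gm42418, mitochondrial ribosomal RNA and a satellite repeat. In the edgeR quasi-likelihood test with treatment as a block, 3 genes (0.0212% of those tested) were higher in J2 at an adjusted p under 0.05 and 0 (0.0%) were lower; at an unadjusted p under 0.05 there were 372 higher and 2515 lower. The 3 genes were Gm26870, Gm24270 and Gm23935. Without the DMSO pair, 293 were called higher and 1345 lower, of which 104 and 496 had the opposite sign in the DMSO pair. Because so few genes passed, genes below were also chosen, after their values were seen, by a 2-fold difference in every pair: 73 were higher (0.516%) and 143 lower (1.01%). Of the 73, 20 had a mean under 1 CPM in total RNA and so were kept only through their J2 levels, and 9 of the 143 were kept only through total RNA. The median gene had a ratio of -0.35 with scaling by library totals, which moved to 0.00 with DESeq2 size factors, and with TMM factors the split became 160 higher and 24 lower. The SD over pairs was 0.49 for the median gene. At any size of difference, 946 genes (6.69%) were higher in all 3 pairs and 5640 (39.9%) lower, which is the background for the counts of list members below.

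**Figure D1:**
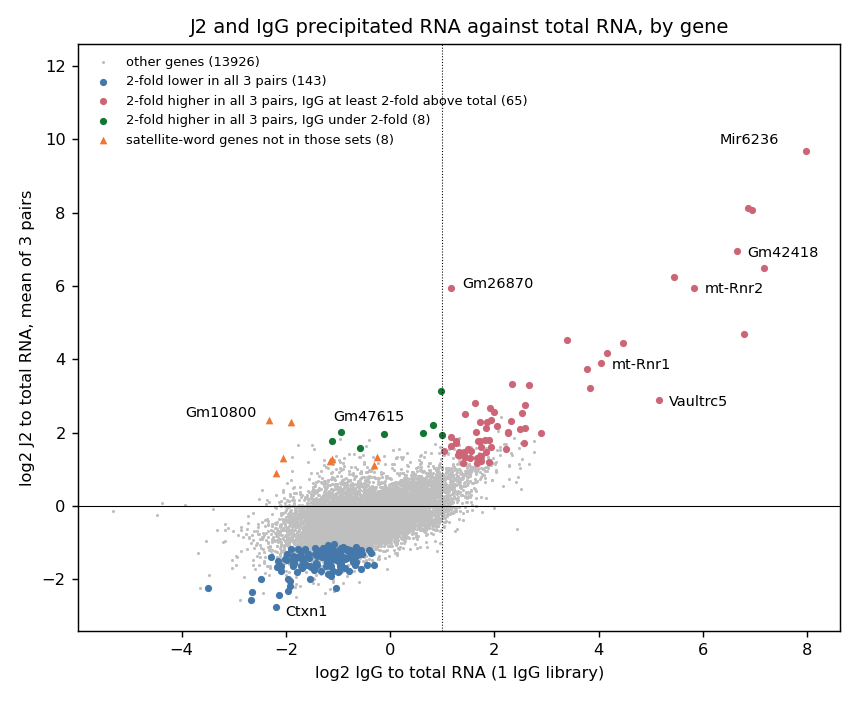
Each point is 1 of 14142 genes, with the log2 ratio of IgG to total RNA (1 IgG library) on the horizontal axis and the mean log2 ratio of J2 to total RNA over 3 pairs on the vertical axis. Of the 73 genes at least 2-fold higher in all pairs, 65 lie right of the dotted line, where IgG was also at least 2-fold above total RNA, and the 143 lower genes all lie left of 0; both axes share the total RNA libraries.

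Most genes with a high J2 ratio had a high IgG ratio. The ratios share their total RNA libraries, so genes picked for low total RNA tend to be high in both, and the shares over all genes are no measure of what that alone gives; the levels in J2 and IgG are therefore set side by side. Of the 73 genes 2-fold higher in every pair, 65 had an IgG ratio of at least 1, and 527 of all genes (3.73%) did. They included 23 protein-coding genes, 17 processed pseudogenes, 5 loci annotated as microRNAs, 4 small nucleolar and 4 small nuclear RNAs and the 2 mitochondrial ribosomal RNAs. Gm42418, a locus known to gather ribosomal RNA reads, took 0.0299% to 0.334% of the counts of total RNA and 16.1% to 18.9% of those of J2, and 14.2% of IgG. The other listed locus of that kind, Gm26917, was at -1.20 ± 1.99, with 1780, 24500 and 8350 CPM in total RNA and 3460, 3160 and 2760 CPM in J2. Lars2, the mitochondrial leucyl-tRNA synthetase, had 331, 47.1 and 20.3 CPM in total RNA, 7670, 3720 and 8370 CPM in J2 and 9970 CPM in IgG, a ratio of 6.49 ± 2.07. IgG was above every J2 library there. As for Gm42418, the Lars2 level in total RNA was lowest with 5-AZA-CdR. Whether the Lars2 counts hold ribosomal RNA reads was not tested. The 2 mitochondrial ribosomal RNAs, mt-Rnr1 and mt-Rnr2, summed to 2510, 1580 and 1120 CPM in total RNA, 56900, 53600 and 57400 CPM in J2 and 54100 CPM in IgG. These sums did not overlap between total RNA and J2, and the IgG value lay within the J2 range. The library kit depletes ribosomal RNA, and the part of that step in these levels was not tested.

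Mir6236 (chr9:110281287-110281409, GRCm38, + strand), annotated as a microRNA, had the highest ratio of any kept gene. Its CPM was 4.17, 5.85 and 0.116 in total RNA and 3240, 2320 and 1360 in J2, a log2 ratio of 9.69 ± 1.32 (SD, n = 3 pairs). IgG held 663 CPM, below each J2 library. The called genes Gm24270 and Gm23935 stood next. Gm24270 had 4.17, 4.94 and 0.897 CPM in total RNA and 1450, 812 and 645 CPM in J2, with 383 CPM in IgG (8.12 ± 0.83; edgeR adjusted p = 0.0265). Gm23935 had 5.70, 14.4 and 3.07 CPM in total RNA and 3160, 1730 and 1190 CPM in J2, with 852 CPM in IgG (8.08 ± 1.10; edgeR adjusted p = 0.0377). All 3 loci were thus lowest in total RNA, higher in IgG and highest in J2. Gm42418, the ribosomal RNA-like locus, had the same order. It had 3340, 2840 and 299 CPM in total RNA, 142000 CPM in IgG and 189000, 161000 and 174000 CPM in J2. Whether the reads of the 3 loci come from microRNAs or from ribosomal RNA was not tested, nor was the part of ribosomal RNA depletion. The called pair are copies of 1 sequence, shown because both loci hold it whole. Capitals mark the bases equal in both, which are all 57, at chr9:56223715-56223771 (- strand) and chr16:11144125-11144181 (+ strand) of GRCm38, and 73.7% of them are G or C.
Gm24270: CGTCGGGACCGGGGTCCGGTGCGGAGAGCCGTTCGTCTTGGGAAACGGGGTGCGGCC
Gm24245 carries the same 57 bases, and Gm24187 equals them at 56. Their J2 levels were 16.4, 3.13 and 1.35 CPM for Gm24245 and 120, 75.3 and 76.4 CPM for Gm24187. Within the 57 bases, reads of identical copies cannot be told apart, yet the counts differed between the loci. How reads were shared among the copies was not tested, so the 4 values may not be independent.

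Small structured RNAs were mixed. Rn7sk, the RNA that holds the elongation factor P-TEFb inactive, had 1560, 3330 and 3640 CPM in total RNA and 3950, 4500 and 4970 CPM in J2, with 4780 CPM in IgG. Each J2 library was above all 3 total RNA libraries, and IgG lay among the J2 values. Vaultrc5, a vault RNA, had a ratio of 2.88 ± 0.39, with 12 to 28.9 CPM in J2 and 90.4 CPM in IgG. Rny1, a Y RNA bound by the Ro protein, was at 1.31 ± 0.89. The 3 copies of the signal recognition particle RNA had mean ratios under 0, with SDs larger than the means: Rn7s1 gave -0.63 ± 1.77, Rn7s2 -0.66 ± 0.81 and Rn7s6 -0.19 ± 2.16. Of 6 listed structured RNAs kept, 1 was 2-fold higher in all pairs, 2 had an IgG ratio of at least 1, and none was called. Their median was 0.27, or -0.19 among those with a mean of 5 CPM or more. By annotation class, 4 of 31 small nuclear RNAs and 4 of 48 small nucleolar RNAs were 2-fold higher in all pairs, beside 0.516% of all genes. Gm22513, a small nuclear RNA, had 212, 103 and 393 CPM in total RNA against 1410, 660 and 1830 CPM in J2 and 1180 CPM in IgG. Bc1, a neuronal noncoding RNA derived from a transfer RNA, was listed at no more than 0.176 CPM in total RNA and at 12.7, 16.6 and 4.59 CPM in J2, with 9.98 CPM in IgG; it was kept only through its J2 levels.

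Messenger RNAs of ribosomal proteins were among those enriched by IgG as well as J2, and those of the respiratory chain were mixed. Of 88 cytoplasmic ribosomal protein genes, 45 were higher in J2 in all 3 pairs (6.69% of all genes were), 2 were lower in all (39.9%), 6 were 2-fold higher in all and none was called. The list's median ratio was 0.48, beside -0.35 for all genes, and 46 of the 88 had an IgG ratio of at least 1. Rpl21 had 342, 194 and 181 CPM in total RNA, 922, 951 and 586 CPM in J2 and 856 CPM in IgG. Rps23 had 486, 309 and 312 CPM in total RNA, 1040, 1300 and 867 CPM in J2 and 1020 CPM in IgG. For both, every J2 library was above every total RNA library, and IgG lay within the J2 range. At the other end of the list, Rpl24 was at -0.73 ± 0.34 and Rps10 at -0.54 ± 0.78. Among 77 nuclear genes for respiratory chain subunits, 19 were higher and 13 lower in all pairs, none was called, and the median was 0.02 (-0.11 without the 5-AZA-CdR pair). Ndufa13 of complex I reached 2.32 ± 0.44 with an IgG ratio of 2.32, whereas Atp5g3 of ATP synthase was at -1.12 ± 0.99 with an IgG ratio of 0.18.

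Longer transcripts had lower J2 ratios. In 5 groups of equal size by summed exon length, from shortest to longest, the median ratio was -0.03, -0.31, -0.37, -0.42 and -0.49, and the median IgG ratio -0.04, -0.30, -0.37, -0.47 and -0.67. The order was the same in both precipitates. Within protein-coding genes the J2 medians were -0.15, -0.34, -0.40, -0.44 and -0.51. Processed pseudogenes, copies of mature messenger RNAs that share reads with their parents, had a median of 0.16 over 730 genes, with 0.14 in IgG.

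Genes with low J2 ratios had low IgG ratios, again against the same total RNA libraries. Of the 143 genes 2-fold lower in every pair, 132 were protein coding, as were 81.5% of all kept genes, all 143 had an IgG ratio under 0, as did 72.1% of all kept genes, and 97 had one of -1 or less. Myadm, a membrane protein of the myeloid differentiation family, had 766, 989 and 790 CPM in total RNA, 181, 191 and 188 CPM in J2 and 221 CPM in IgG, a ratio of -2.17 ± 0.17 (edgeR adjusted p = 0.105). Atn1, the transcriptional corepressor atrophin-1, had 22.8, 26.3 and 22.1 CPM in total RNA and 2.95, 5.14 and 4.06 CPM in J2 (edgeR adjusted p = 0.116). Neither gene's J2 and total RNA libraries overlapped. Ctxn1 (cortexin) had the lowest ratio of all kept genes, -2.76 ± 1.13. Marcks, a substrate of protein kinase C, was at -1.77 ± 0.44, and Peg10, an imprinted gene derived from a retrotransposon, at -1.99 ± 1.01. Tuba1a, an alpha-tubulin, was at -1.61 ± 0.39, and Hspa1b, a heat shock chaperone, at -1.60 ± 0.41.

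Few genes were 2-fold higher in J2 without also being so in IgG, and their number depended on the settings. It was 8 in the main setting, 34 of 160 with TMM factors and 35 to 42 on leaving out a pair. The 8 of the 73 with an IgG ratio under 1 were Gm24245, Gm44096, Gm47615, Rpl21-ps15, Gm15879, Gm44067, Gm26621 and Gm48232, and in each of them all 3 J2 libraries exceeded IgG. Of these, 4 were above 0 in IgG, Gm24245 and Gm44067 just under the line at 0.98 and at 1.0 after rounding, Gm44096 at 0.82 and Rpl21-ps15 at 0.62, and Gm24245 shares its sequence with Gm24270 and Gm23935, whose IgG ratios were 6.87 and 6.95. Gm24245, Gm44096, Gm44067 and Gm48232 had a mean under 1 CPM in total RNA and were kept only through J2. Gm15879, with an IgG ratio of -0.13, had 1.35 to 1.53 CPM in total RNA and 1.31 CPM in IgG. Gm47615 (chr10:63270090-63270868, + strand), an unspliced transcript whose gene model awaits experimental proof (the annotation class TEC), had 1.76, 1.65 and 1.76 CPM in total RNA and 9.77, 7.85 and 8.27 CPM in J2. Its IgG level was 0.653 CPM, below every total RNA library, and its J2 ratio was 2.03 ± 0.13. Gm26621 (chr15:68334715-68337430, - strand), a noncoding transcript that overlaps another annotated gene, had 3.58, 4.26 and 4.51 CPM in total RNA, 15.3, 13.8 and 16.5 CPM in J2 and 1.63 CPM in IgG. The levels of both genes were thus lowest in IgG and highest in J2, the spread within a fraction being small beside the gap. Gm48232, also of class TEC, had 1.56, 2.01 and 1.73 CPM in J2 and no count in IgG, which allows up to 0.196 CPM (3 counts; counting error only); its total RNA levels of 0.353, 0.341 and 0.0868 CPM are too low to set against that. Gm47615 and Gm26621 had an edgeR adjusted p of 0.153.

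A wider set was taken after the data were seen: J2 above total RNA in all 3 pairs and at least 2-fold above IgG in all 3 J2 libraries. It held 79 genes (0.559%), of which 35 were of class TEC and 17 protein coding. The class made up 833 of the 14142 genes. The class was low in IgG, which the rule used: its median IgG ratio was -1.31, beside -0.43 for all genes, whereas its median J2 ratio was -0.35, as for all genes, and 5.4% of it was higher in J2 in all pairs, beside 6.69%. Of the 79, 14 were kept only through J2. Another 5 were annotated as lying within an intron of another gene. Gm37206 (TEC; chr19:4762103-4765171, - strand), whose exon lies on a hyper-edited region listed by the study, was among the most abundant, with 22.2, 15.3 and 26.2 CPM in total RNA, 82.7, 78.1 and 47.4 CPM in J2 and 7.05 CPM in IgG. Avil, the actin-binding protein advillin, had 2.0, 1.14 and 8.07 CPM in total RNA, 12.2, 2.71 and 26.2 CPM in J2 and 0.457 CPM in IgG. The mitochondrial transfer RNAs mt-Tm and mt-Tq belonged to it, at 1.33 ± 0.47 and 1.21 ± 0.58.

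**Figure D2:**
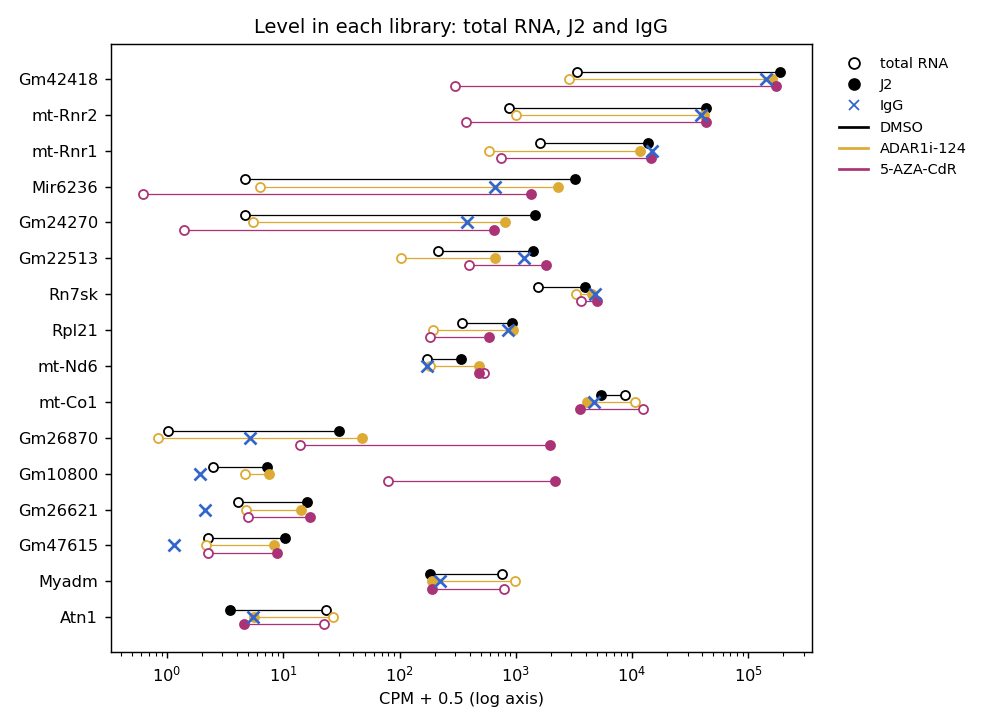
CPM after adding 0.5, on a log axis, in the 3 total RNA libraries, the 3 J2 libraries and the IgG library, for genes named in the text, with 1 point per library. Rpl21 and Gm22513 have IgG levels among their J2 levels, whereas Gm47615 and Gm26621 have IgG levels under those of total RNA.

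Among genes of middle length, those with long inverted repeats had higher median J2 ratios, though hardly so for protein-coding genes in the DMSO pair. For each gene the exons were aligned to their own reverse complement (match 1, mismatch -1, gap -2 per base), and the best local score was taken as a stem score, a measure of sequence and not of a fold. Among genes with 1000 to 6000 exonic bases, the median J2 ratio was -0.32 at a score of 0 to 29 (8173 genes), -0.34 at 30 to 49 (553), -0.25 at 50 to 69 (136), -0.12 at 70 to 99 (68) and 0.08 at 100 or more (47). The IgG medians of the same bins were -0.32, -0.44, -0.38, -0.37 and -0.56. In the TEC class of that length the J2 medians were -0.39 (645 genes), -0.23 (76), -0.09 (21), 0.26 (10) and 0.40 (11), with IgG medians of -1.31 and -1.14 at the ends. In protein-coding genes they ran from -0.33 (6765 genes) to -0.08 (31), with IgG medians of -0.23 and -0.11 at the ends. Within each class the IgG median was thus also higher in the top bin than in the bottom bin. From bottom to top bin, the J2 median of all genes of that length went from -0.34 to -0.01 (DMSO), -0.26 to 0.24 (ADAR1i-124) and -0.30 to 0.03 (5-AZA-CdR). That of protein-coding genes went from -0.38 to -0.35, -0.29 to -0.11 and -0.25 to 0.12 in the same order. The last 2 TEC bins hold under 20 genes. Without the limit on length the J2 medians barely moved, at -0.34, -0.43, -0.36, -0.34 and -0.29 from the lowest to the highest bin. For genes of 1000 to 6000 bases, under 8 other settings of scaling, pairs, pseudocount and filter, chosen after seeing the data, the top bin exceeded the bottom bin by 0.29 to 0.41. No gene of the top bin was called.

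The arms of 3 such stems are printed because they show what the score measures. Capitals mark bases that pair, in the alignment, with the other arm of the same gene, and each sequence is read along the transcript from GRCm38. The Gm47594 arms (chr10:61571447-61571652 and chr10:61573339-61573543, + strand) pair at 82.7% of aligned positions across 1686 bases between them.
Gm47594 arm 1: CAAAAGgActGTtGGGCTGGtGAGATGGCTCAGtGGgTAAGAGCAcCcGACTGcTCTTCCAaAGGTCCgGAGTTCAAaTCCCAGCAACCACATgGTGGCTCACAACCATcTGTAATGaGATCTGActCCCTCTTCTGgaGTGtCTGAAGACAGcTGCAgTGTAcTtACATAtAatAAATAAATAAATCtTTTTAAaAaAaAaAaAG
Gm47594 arm 2: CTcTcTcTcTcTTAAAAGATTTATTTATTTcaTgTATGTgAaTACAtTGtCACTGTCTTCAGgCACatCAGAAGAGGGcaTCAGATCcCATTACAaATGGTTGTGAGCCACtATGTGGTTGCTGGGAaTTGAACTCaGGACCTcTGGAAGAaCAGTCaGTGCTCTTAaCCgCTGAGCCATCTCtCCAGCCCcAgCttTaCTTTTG
The Gm45718 arms (chr7:80912862-80913042 and chr7:80910383-80910562, - strand) pair at 82.9% across 2299 bases.
Gm45718 arm 1: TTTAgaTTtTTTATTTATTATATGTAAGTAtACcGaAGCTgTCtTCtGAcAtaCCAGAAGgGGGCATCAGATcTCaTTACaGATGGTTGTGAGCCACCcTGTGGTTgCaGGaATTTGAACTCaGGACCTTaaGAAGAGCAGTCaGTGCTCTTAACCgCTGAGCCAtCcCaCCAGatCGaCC
Gm45718 arm 2: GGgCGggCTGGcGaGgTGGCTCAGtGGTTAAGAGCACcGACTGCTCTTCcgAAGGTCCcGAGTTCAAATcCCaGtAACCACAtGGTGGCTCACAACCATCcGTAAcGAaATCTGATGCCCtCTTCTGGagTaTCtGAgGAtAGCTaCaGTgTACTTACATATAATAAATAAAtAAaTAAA
The 9430034N14Rik arms (chr1:156029759-156029970 and chr1:156027199-156027407, - strand) pair at 77.2% across 2351 bases.
9430034N14Rik arm 1: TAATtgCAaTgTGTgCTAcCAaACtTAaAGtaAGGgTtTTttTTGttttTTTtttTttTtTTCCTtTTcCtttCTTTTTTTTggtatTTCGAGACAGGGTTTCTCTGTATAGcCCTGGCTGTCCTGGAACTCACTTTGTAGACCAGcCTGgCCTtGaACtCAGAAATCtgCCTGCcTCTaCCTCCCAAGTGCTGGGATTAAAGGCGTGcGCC
9430034N14Rik arm 2: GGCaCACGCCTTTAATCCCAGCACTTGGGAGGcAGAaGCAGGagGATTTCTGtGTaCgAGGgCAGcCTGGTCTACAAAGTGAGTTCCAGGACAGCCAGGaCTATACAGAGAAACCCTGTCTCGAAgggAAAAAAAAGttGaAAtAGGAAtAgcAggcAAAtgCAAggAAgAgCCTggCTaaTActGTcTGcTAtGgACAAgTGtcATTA
Gm45718 had 4.58, 5.22 and 4.48 CPM in total RNA, 7.14, 7.85 and 6.54 CPM in J2 and 1.44 CPM in IgG, with a ratio of 0.54 ± 0.04. Its J2 levels were above every total RNA level, and IgG was lowest. Gm47594 was at 0.67 ± 0.62 with 0.196 CPM in IgG, and 9430034N14Rik at 0.42 ± 0.46 with 4.31 CPM in IgG, so their ratios overlapped those of genes with low scores.

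**Figure D3:**
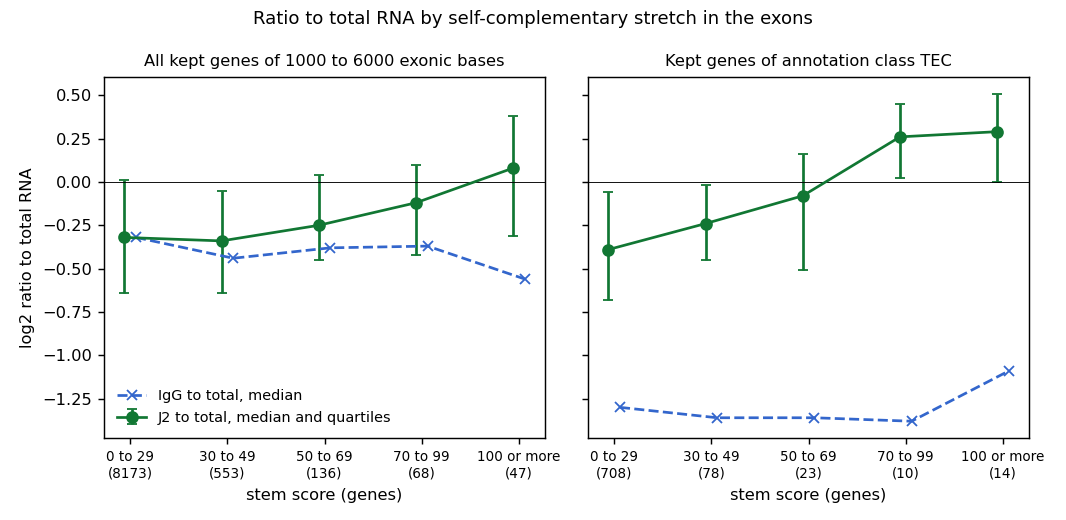
Median log2 ratio to total RNA (vertical axis) of J2 and of IgG by bin of stem score (horizontal axis), for genes of 1000 to 6000 exonic bases (left) and for genes of class TEC of any length (right), with bars for the J2 quartiles and gene numbers in brackets. From the lowest to the highest bin the J2 median goes from -0.32 to 0.08 on the left and from -0.39 to 0.29 on the right. The IgG median goes from -0.32 to -0.56 on the left and from -1.30 to -1.09 on the right.

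Groups tied to RNA editing had median J2 ratios of -0.57 to -0.06, beside -0.35 for all genes. Of 10 conserved ADAR recoding targets, in which an exon pairs with an editing complementary sequence, 8 were lower in J2 in all 3 pairs (39.9% of all genes were), none was 2-fold lower in all and none was called. Their median of -0.57 lay under that of all genes. Azin1 (antizyme inhibitor) was at -0.36 ± 0.21, Flna (filamin A) at -0.49 ± 0.43 and Blcap at -0.90 ± 0.57. Of 242 genes with an exon on one of 373 hyper-edited regions listed by the study, 232 were kept, with a median of -0.31 in J2 and -0.28 in IgG; 3 were 2-fold higher in all pairs, 1 was 2-fold lower, 22 were higher in all pairs and 92 lower, or 9.48% and 39.7%, beside 6.69% and 39.9% of all genes. The list was drawn up from editing sites found in this study's own samples, joined with those of a public database. Iws1, Wdr76 and Gnl3l, hyper-edited hosts that the study singles out, were at -0.04 ± 0.26, -0.06 ± 1.05 and -0.42 ± 0.32, a median of -0.06. Messenger RNAs of the double-stranded RNA binding proteins themselves had a median of -0.28 over 16 genes, or 0.09 with TMM factors, with Drosha, the nuclear microRNA processing enzyme, at -0.81 ± 0.02 and Adar at 0.15 ± 0.49.

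Mitochondrial messenger RNAs were mostly lower in J2. As background, both strands of the mitochondrial genome are transcribed in full, and RNA from the light strand is normally removed. The 12 messenger RNAs of the heavy strand had a median of -0.63, with 8 lower in all pairs, 1 of them 2-fold lower in all, and none called. Their summed CPM was 16800, 20800 and 20600 in total RNA, 11600, 13300 and 7280 in J2 and 8720 in IgG. The largest contributor, mt-Co1, was at -1.29 ± 0.58, and mt-Nd4l at -2.22 ± 0.67. The highest of the 12, mt-Nd3, was at 0.89 ± 1.99, with 63.5, 20.4 and 43.4 CPM in total RNA and 46.5, 189 and 41.7 CPM in J2. The light-strand messenger RNA mt-Nd6 had 171, 182 and 532 CPM in total RNA, 337, 478 and 487 CPM in J2 and 171 CPM in IgG, so each J2 library was above IgG, while the 5-AZA-CdR pair had less in J2 than in total RNA (0.75 ± 0.79; edgeR adjusted p = 0.274). If the counting ignored strand, reads of the opposite transcripts are joined in these values.

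Nuclear long noncoding RNAs were low in IgG and less so in J2. Over 9 such genes the median was -0.38 in J2 and -1.24 in IgG, with 4 lower and 1 higher in all pairs. Malat1, a speckle RNA, had 9420, 10600 and 31500 CPM in total RNA, 18300, 5280 and 14600 CPM in J2 and 3980 CPM in IgG. Neat1, the paraspeckle scaffold, had 1010, 1830 and 2520 CPM in total RNA, 2410, 521 and 652 CPM in J2 and 255 CPM in IgG. Both were higher in J2 in the DMSO pair and lower in the other pairs, and J2 exceeded IgG in all 3 libraries. Kcnq1ot1, the antisense RNA of an imprinted domain, was at -0.31 ± 0.23 with an IgG ratio of -1.39. Xist, the RNA of X inactivation, had a ratio of 1.07 in the 5-AZA-CdR pair, the only one with levels above 1 CPM. Messenger RNAs of the housekeeping list had a median of -0.59 over 10 genes, with Actb at -1.07 ± 0.61, Gapdh at -0.94 ± 0.57 and Eef1a1 at -0.24 ± 0.44.

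The remaining lists differed from one another. The 298 genes named Zfp, mostly zinc finger regulators, had a median of -0.36, with 146 lower and 9 higher in all pairs (49% and 3.02%, beside 39.9% and 6.69% of all genes), 4 of them 2-fold lower and none called. The 53 replication-dependent histone genes, whose messenger RNAs end in a stem-loop in place of a tail, had a median of -0.08 (0.23 with TMM factors), with 4 higher and 4 lower in all pairs. Hist1h2bb had 12.5, 6.19 and 1.19 CPM in total RNA, 34.3, 106 and 32.2 CPM in J2 and 74.8 CPM in IgG. The 15 hosts of small nucleolar RNAs had a median of 0.08, with 5 higher (33.3%) and 1 lower in all pairs, none 2-fold in all and none called, and with Snhg15 at 0.93 ± 0.03 and Snhg3 at -1.0 ± 0.70. The 12 immediate early genes had medians of 0.58, -1.94 and -0.46 in the DMSO, ADAR1i-124 and 5-AZA-CdR pairs, so their sign also differed between pairs.

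Major satellite RNA was far higher in J2 than in total RNA of the 5-AZA-CdR pair. As background, this repeat builds the heterochromatin beside mouse centromeres and is held silent by DNA methylation and histone marks. Gm26870 (chr9:3000282-3038313, - strand), the third called gene, is an array of a 234-base unit on chromosome 9. It had 0.529, 0.341 and 13.3 CPM in total RNA (9, 6 and 460 counts), 29.4, 46.9 and 1990 CPM in J2 (358, 675 and 26425 counts) and 4.63 CPM in IgG. Its ratio was 4.86, 5.82 and 7.17 in the DMSO, ADAR1i-124 and 5-AZA-CdR pairs, or 5.95 ± 1.16 (edgeR adjusted p = 0.0265), beside an IgG ratio of 1.17. Each J2 library was above IgG and above its own total RNA. 1 unit of the array (chr9:3024398-3024631, - strand) is printed beside 1 of the Gm10800 locus (chr2:98666667-98666900, + strand), because reads can hardly be told apart between them: 226 of 234 bases (96.6%) are equal. Capitals mark the 8 bases that differ, and 63.2% of the first unit is A or T.
Gm26870 unit: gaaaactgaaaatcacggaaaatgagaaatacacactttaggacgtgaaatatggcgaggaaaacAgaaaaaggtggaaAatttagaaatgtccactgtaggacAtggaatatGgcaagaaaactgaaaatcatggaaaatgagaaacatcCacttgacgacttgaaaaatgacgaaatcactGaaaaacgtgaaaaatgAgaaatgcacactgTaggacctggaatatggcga
Gm10800 unit: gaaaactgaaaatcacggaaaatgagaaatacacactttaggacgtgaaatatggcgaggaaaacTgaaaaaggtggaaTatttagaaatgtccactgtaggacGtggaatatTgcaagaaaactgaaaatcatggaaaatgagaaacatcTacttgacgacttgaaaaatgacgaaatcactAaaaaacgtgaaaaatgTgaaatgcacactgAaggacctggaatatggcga

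After the values were seen, every gene with at least 50% of its exonic 15-base words in the chromosome 9 locus was taken as carrying the satellite. There were 13, of which 9 were kept. Their summed CPM was 7.23, 13.4 and 138 in total RNA, 41.2, 59.2 and 4970 in J2 and 7.25 in IgG; the IgG library, with its low Xist, is no measure of the level without J2 after 5-AZA-CdR. The 5-AZA-CdR libraries were thus highest in both fractions. Of the 9, 4 were kept only through the J2 library of 5-AZA-CdR, where they are high, so the median ratios of the 9, at 0.41, -0.24 and 4.60 in the DMSO, ADAR1i-124 and 5-AZA-CdR pairs, are a description; those of the other 5 were 0.98, 0.63 and 4.79. Gm10800 (chr2:98666547-98667301, - strand) had 2.0, 4.20 and 78.6 CPM in total RNA, 6.73, 7.09 and 2180 CPM in J2 and 1.44 CPM in IgG. Gm11168 (chr9:3003346-3006948, + strand) had 0.588, 0.851 and 5.99 CPM in total RNA and 1.64, 1.60 and 255 CPM in J2. Gm21738 on chromosome 14 had 3.41, 5.34 and 7.17 CPM in total RNA and 1.64, 2.43 and 182 CPM in J2. The annotated genes lie on both strands of the repeat, but whether the reads came from both cannot be told apart, since the strand setting of the counting is not given in the sources used here. With 1 library per treatment, the difference of the 5-AZA-CdR pair from the others has no replicate.

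Some lists changed sides between the pairs. The interferon-stimulated genes, 25 kept, had median ratios of -0.16, 2.19 and 0.67 in the DMSO, ADAR1i-124 and 5-AZA-CdR pairs. Of them, 14 (56.0%) had an IgG ratio of at least 1, beside 3.73% of all genes. The summed CPM of the 25 was 3560, 182 and 3080 in total RNA, 3270, 563 and 5870 in J2 and 2690 in IgG. The ADAR1i-124 libraries were thus lowest in both fractions. Isg15, a ubiquitin-like antiviral protein, followed this with 287, 3.58 and 113 CPM in total RNA and 305, 33.3 and 604 CPM in J2. The IgG sum was above only that of the ADAR1i-124 total RNA, 1 of the 3 libraries behind the IgG ratio. In the paper, qRT-PCR after a longer ADAR1i-124 treatment gave higher Ifih1, Cxcl9 and Cxcl10 in Yumm1.7 cells. Time and method differ from the 12 h libraries used here. The 15 sensors of double-stranded RNA, most of them interferon-induced, had medians of -0.40, 1.84 and 0.29. Oas2, an oligoadenylate synthetase, had 94.7, 0.114 and 190 CPM in total RNA and 91.1, 9.59 and 165 CPM in J2. None of these genes was called, and 10 of the 25 interferon-stimulated genes were higher in J2 in all pairs. The 11 collagen and matrix genes had medians of 0.56, -1.75 and -3.53, moving with the Y-linked genes and Col4a1 given above; their part in these results was not tested. In bulk RNA, fewer cells of a type and less RNA per cell cannot be told apart.

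At 10 CPM or more on average, the largest increase of the ratio from DMSO to 5-AZA-CdR was that of the satellite genes Gm21738 (5.44), Gm10718 (4.89) and Gm10722 (4.50), followed by Rhox5 (4.47) and Gm15564 (4.46). The 3 satellite genes reached 10 CPM only through the J2 library of 5-AZA-CdR, their mean over the other libraries being 4.0, 0.741 and 0.631 CPM, so their place in this order was partly set by the choice of genes. Rhox5, a homeobox gene of the X chromosome, went from -2.08 to 5.23 with ADAR1i-124 and to 2.39 with 5-AZA-CdR, with 36.6, 0.851 and 25.6 CPM in total RNA and 8.29, 50.4 and 137 CPM in J2. Iigp1, an interferon-induced GTPase, went from -0.67 to 4.64 with ADAR1i-124. The largest falls were those of Bgn (biglycan), from 5.96 to -4.73 and -8.63, and Crabp1, a retinoic acid binding protein, from 7.41 to -2.88 and -8.23. Crabp1 had 0.353, 23.2 and 195 CPM in total RNA and 145, 2.71 and 0.150 CPM in J2, so the order of the treatments was opposite in the fractions. These values have no replicate.

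**Figure D4:**
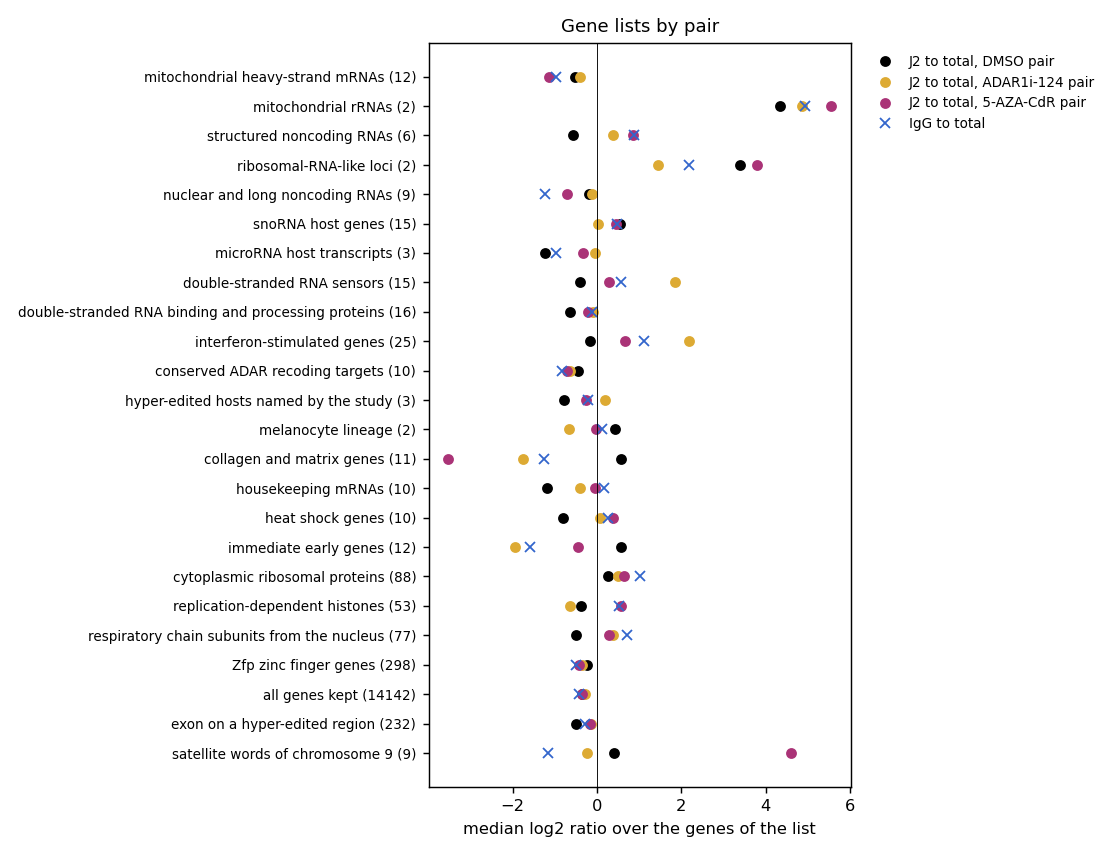
Median log2 ratio of J2 to total RNA for each gene list in each of the 3 pairs (points) and of IgG to total RNA (crosses), with the number of kept genes in brackets. The mitochondrial ribosomal RNAs stand above 4 in every pair, the satellite-word genes are at 4.60 in the 5-AZA-CdR pair, where 4 of the 9 were kept only through that J2 library, and the collagen list spans 0.56 to -3.53.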

How the data were processed

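The authors treated Yumm1.7 cells, digested RNA with RNase I, precipitated it with J2 and sequenced it after total RNA library preparation. Reads were aligned with STAR in snakePipes to mm10 (GRCm38); the counting tool and strand setting are not given in the sources used here. The deposited table holds raw counts per gene for 13 libraries; here 7 columns served the main comparison. IDs were matched to GENCODE M21 (54495 of 54532 matched, 37 not). Counts were tested with edgeR 4.0.16 (R 4.3.3) under a quasi-likelihood model of treatment plus fraction, with library totals and Benjamini-Hochberg adjustment, and called at an adjusted p under 0.05. CPM used column sums, a pseudocount of 0.5 CPM and a mean of at least 1 CPM. A gene was marked by IgG at a log2 ratio of at least 1. Named genes were to be the extremes of the called genes and list members; with 3 called, genes 2-fold apart in all 3 pairs were named after their values were seen. Treatment differences, lists and IgG had no test. The p-values measure only the spread between these libraries. Members and lists were chosen with earlier results of these data known. The fit was tested on simulated data. Alternatives were other scalings, filters, pseudocounts and folds, leaving out each pair, no block, DESeq2 1.42.0 and the Y-linked level as a covariate.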

Additional observations from a re-analysis of the deposited data

Results flagged for a closer look

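The J2 to total RNA ratio of 3 gene groups went opposite ways in pairs of the same contrast; these differences were not tested, having 1 library per fraction and treatment. The summed Y-linked genes Ddx3y, Kdm5d and Uty had log2 ratios of 3.04 in the DMSO pair, -5.05 in the ADAR1i-124 pair and -4.64 in the 5-AZA-CdR pair. The collagen and matrix genes had median log2 ratios of 0.56, -1.75 and -3.53 in the same order. The interferon-stimulated genes had median log2 ratios of -0.16, 2.19 and 0.67.

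Satellite signal was also present in libraries outside the comparison. The 13 satellite-word genes summed to 3400 CPM in the J2 library of 5-AZA-CdR with ADAR1i-124, beside 7.25 CPM in IgG, whose Xist level of 1.04 CPM against 333 CPM means that treatment and antibody cannot be told apart there. With Z22, an antibody against Z-form RNA, they summed to 316 CPM after 5-AZA-CdR and to 1100 CPM after 5-AZA-CdR with ADAR1i-124.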

How the results depend on the processing

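The count called higher in J2 (3) became 220 with no filter, 0 with no treatment block, 0 among protein-coding genes only, 0 with the Y-linked level in place of the block and 167 with DESeq2's Wald test, and ranged from 6 to 293 on leaving out a pair. The count called lower (0) became 834 with no filter and 925 with DESeq2, and ranged from 0 to 1345 without a pair, the high ends being without the DMSO pair. Gm26870, Gm24270 and Gm23935 remained called in all settings that tested them, except no block and the Y-linked level in place of the block. None of the 3 is annotated as protein coding, so the fit of protein-coding genes did not test them. The main fit also called 0 protein-coding genes. Genes 2-fold higher in all pairs (73) were 160 with TMM, 164 with DESeq2 size factors, 166 without the 20 largest genes in the totals, 23 at 4-fold and 107 to 265 without a pair. Genes 2-fold lower (143) were 24, 23, 26 and 2 under the same settings and 291 to 1008 without a pair. Those marked by IgG (65) were 126, 128 and 128 under the scalings, 29 at a 4-fold IgG line and 71 to 230 without a pair; those not marked (8) were 34, 36 and 38, 4 at a 1.5-fold line, 44 at a 4-fold line and 35 to 42 without a pair. Of the other values, 290 of 329 moved by less than their spread and 39 by more. None of the 39 was a called value. The spread was the SD over the 3 pairs. For a single gene, leaving out 1 pair cannot move the mean by that much, so this tally is no measure of stability. List medians changed sign in 28 combinations of list and setting, 18 by scaling, 8 by leaving out a pair and 2 by the filter. Examples are the heat shock genes (-0.15, or 0.22 with TMM) and the leukocyte markers (-0.27, or 0.63 without the 5-AZA-CdR pair). The treatment label was the block in the main fit, since the labels give no replicate numbers. Depth limits genes near 1 CPM, 12.2 to 34.6 reads. The J2 and IgG precipitates were digested and total RNA was not, so digestion and antibody can be told apart only through 1 IgG library.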
